A study of Mus musculus with 10 samples.

Results

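The genes of respiratory complexes II and III and of ATP synthase were compared between platelets of P7 mice and platelets of adult mice. They were taken as every gene whose symbol begins Sdhaf, Uqcr, Uqcc, Atp5 or Atpaf, together with Sdha, Sdhb, Sdhc, Sdhd, Cyc1 and Cycs. This gave 49 of the 53819 gene symbols in the files: 8 of complex II, 15 of complex III with cytochrome c, and 26 of ATP synthase. Of the 49, 40 were genes and 9 were pseudogenes. The data are RNA-seq counts from 5 libraries of P7 platelets, read as postnatal day 7 (replicates A, B, C, E and I), and 5 libraries of adult platelets (replicates A, B, C, G and H). No treatment or genetic change is labelled in either group, and the sources used here give neither strain, sex and adult age nor the number of animals per library. Replicates may therefore be technical, and p-values speak only of the spread among the 10 libraries.

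Platelets are shed by megakaryocytes without a nucleus, and carry megakaryocyte RNA and a small number of mitochondria that supply part of their ATP. Complex II, succinate dehydrogenase, links the tricarboxylic acid (TCA) cycle to the respiratory chain by oxidising succinate and reducing ubiquinone. Complex III passes electrons from ubiquinol to cytochrome c and pumps protons, and ATP synthase uses the proton gradient to make ATP with a catalytic F1 head, a rotating ring of subunit c in the membrane and a peripheral stalk that holds the head still. Complex II is encoded in the nucleus alone, whereas cytochrome b of complex III and a pair of membrane subunits of ATP synthase come from mitochondrial DNA (mt-Cytb, mt-Atp6 and mt-Atp8).

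Promoter sequence is shown for 4 of the genes, all of them with a motif match. Their windows differ in the motifs they hold, and the genes differ in whether they changed with age. RefSeq windows on GRCm38.p6 were at hand for 33 members and for 10 of the 13 that passed the test described further on; Atp5a1, Atp5mpl and Uqcrq had none. Each sequence is the 250 bases before the annotated start, 5′ to 3′ on the strand of the gene, and capitals mark motif matches. Nuclear respiratory factor 1 (NRF1; searched as GCGCANGCG), ETS-family factors such as GABP (CCGGAAG), YY1 (AAGATGGCG) and ZNF143 (ACAANTCCC) are known to bind promoters of many housekeeping and mitochondrial genes, and their motifs were searched on both strands. The motif letters were settled, the ZNF143 motif was added and Sdha was chosen for display after the sequences and values had been seen.
Atp5h (chr11:115419920-115420169, - strand): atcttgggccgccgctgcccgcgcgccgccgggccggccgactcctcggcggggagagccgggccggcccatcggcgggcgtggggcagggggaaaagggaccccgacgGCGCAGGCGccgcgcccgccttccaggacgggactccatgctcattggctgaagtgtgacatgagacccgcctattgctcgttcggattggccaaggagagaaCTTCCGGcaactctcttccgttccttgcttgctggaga
Atp5d (chr10:80142025-80142274, + strand): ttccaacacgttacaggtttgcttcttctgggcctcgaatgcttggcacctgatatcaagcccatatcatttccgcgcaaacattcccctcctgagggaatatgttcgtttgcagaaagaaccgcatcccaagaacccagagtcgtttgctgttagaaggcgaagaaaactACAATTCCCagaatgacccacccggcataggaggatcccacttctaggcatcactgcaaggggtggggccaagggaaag
Atp5o (chr16:91931631-91931880, - strand): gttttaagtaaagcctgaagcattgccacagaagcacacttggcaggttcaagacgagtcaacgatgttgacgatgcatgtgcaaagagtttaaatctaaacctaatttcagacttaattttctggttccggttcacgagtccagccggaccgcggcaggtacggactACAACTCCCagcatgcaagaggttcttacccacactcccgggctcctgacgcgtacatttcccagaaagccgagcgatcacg
Sdha (chr13:74350241-74350490, - strand): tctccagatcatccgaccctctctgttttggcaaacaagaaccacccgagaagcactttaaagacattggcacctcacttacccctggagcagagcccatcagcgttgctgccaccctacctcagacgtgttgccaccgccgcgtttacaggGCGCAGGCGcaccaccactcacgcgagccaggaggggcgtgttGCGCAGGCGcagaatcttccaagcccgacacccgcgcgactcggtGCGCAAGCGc
Atp5h, which was higher at P7, held 1 NRF1 match, the capitals nearer its 5′ end, 141 bases before the start, and 1 ETS match 38 bases before it, on the reverse strand. Atp5d and Atp5o, which were also higher at P7, held neither, and each held 1 ZNF143 match, 79 and 82 bases before the start. Sdha, which did not pass the test, held 3 NRF1 matches. Over all 37 windows of members, NRF1 matches stood in 10 (27%), against 11.5% of the 8279 windows of tested genes and 5.16% of all 32851 windows. ETS matches stood in 9 (24.3%), against 14.1% and 6.91%. YY1 matches stood in 1 (2.7%), that of Atp5j, against 1.36% and 0.606%. ZNF143 matches stood in 5 windows of Atp5d, Atp5o, Atpaf2 and Uqcr10 (13.5%), against 3.07% and 1.79%. Overlapping windows of Atp5d hold the same match, 79 and 119 bases before their starts, so it is counted more than once. Because this motif was added after the sequences were seen, its share is a description only. Among genes with a window, an NRF1 match stood in 1 of 7 that were higher at P7, in 1 of 3 that were lower (Sdhaf4) and in 6 of 19 that did not pass. For ETS it was 1 of 7 higher and 6 of 19 that did not pass, for YY1 0 and 1, and for ZNF143 2 and 2. Atp5g1, Uqcc3, Uqcrc1 and Uqcrfs1, which were also higher at P7, held no match of any of these motifs. A match is a run of letters and not a shown site of binding.

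The libraries held 19431863 to 25029931 counts at P7 and 19541997 to 23291269 counts in adults, and a gene with 0 counts could still have stood at 0.120 to 0.154 CPM (counts scaled to a common library size), taking 3 counts of the library as the limit. Platelet markers (Pf4, Itga2b, Gp1ba, Gp9, Gp6, Ppbp, Treml1 and Itgb3) summed to 56841 ± 7989 CPM in the P7 libraries and 58199 ± 10501 CPM in the adult ones (SD, n = 5 each), and all 8 were tested. Single markers differed all the same: Gp9, Itgb3 and Itga2b were higher at P7 (log2 fold change 0.88, 0.90 and 0.55), Ppbp and Gp6 were lower (-1.57 and -0.37), and Pf4, Gp1ba and Treml1 did not pass. Levels are CPM scaled by TMM factors, that is, shares of the library, so fewer cells of a type and less RNA per cell cannot be told apart. Markers of other blood cells were also present and are given after the counts of called genes.

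Of the 49 members, 36 had enough counts to be tested, and the 13 others were 9 pseudogenes, which had 15 counts in all 10 libraries together, and Sdhaf1, Sdhaf3, Uqcc2 and Atp5l, with 0 to 24 counts in a library. At an adjusted p under 0.05 in edgeR's quasi-likelihood test, fitted over 8198 genes with Benjamini-Hochberg adjustment, 10 members were higher at P7, 3 were lower and 23 did not pass. Over all genes tested 27.7% passed, 13.8% higher at P7 and 13.9% lower, so the members' 36.1% was near that background and their split leaned to the higher side, with 27.8% higher and 8.33% lower. The members' median log2 fold change was 0.30, against 0.05 over all genes tested. P7 and adult libraries did not overlap for 10 members (27.8%), 9 higher and 1 lower at P7, against 19.8% of all genes, 10.1% higher and 9.76% lower.

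**Figure D1:**
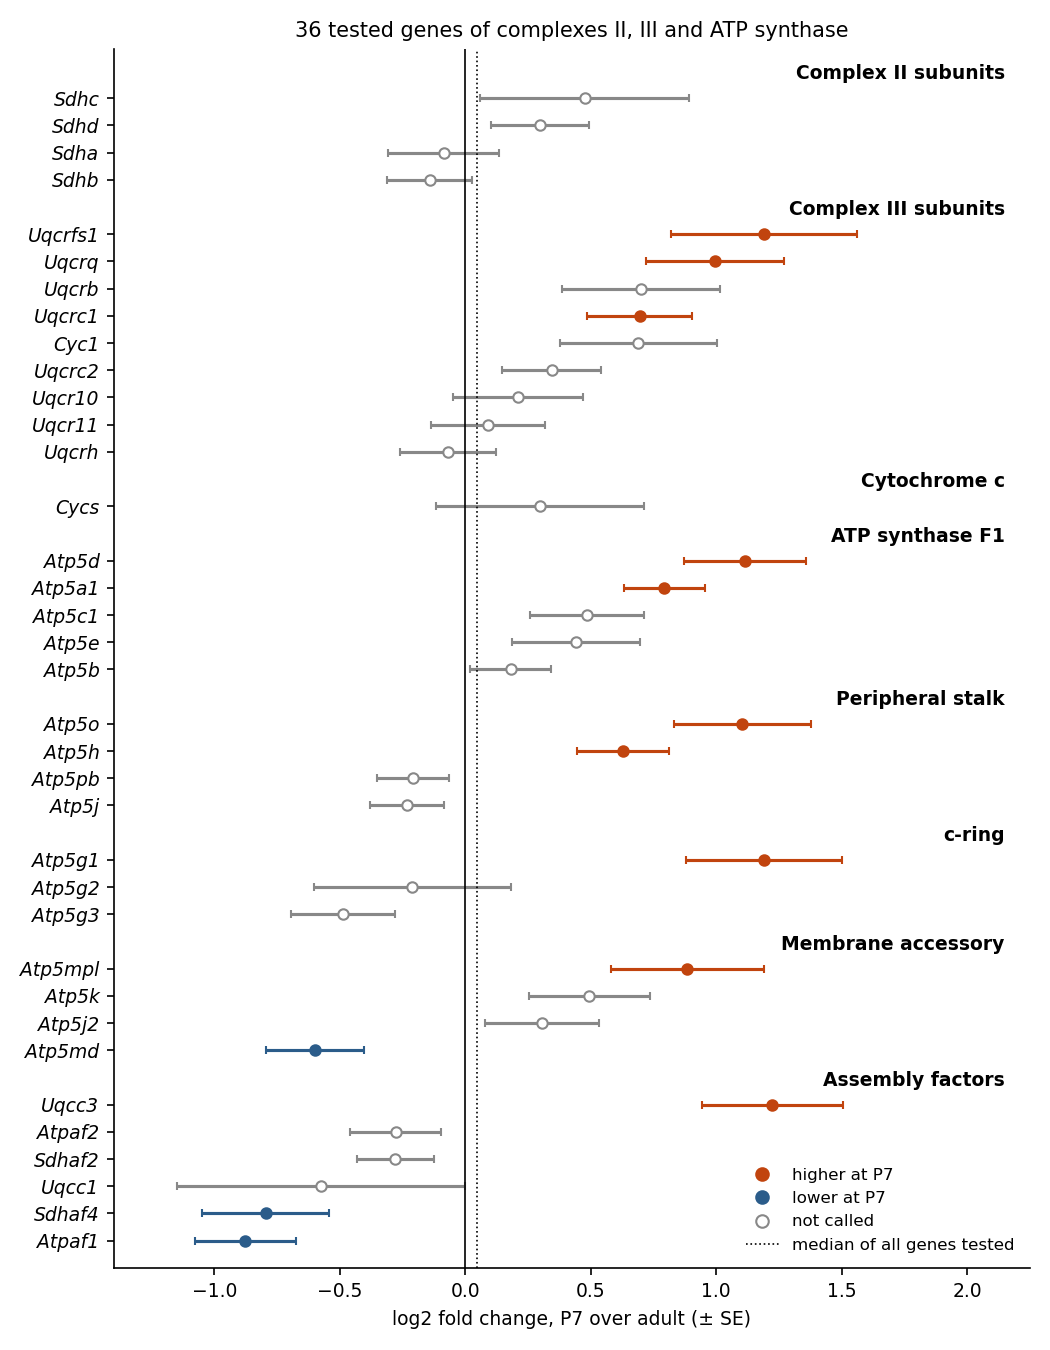
Log2 fold change of the 36 tested members, P7 over adult, with SE bars from the edgeR fit, grouped by complex and part. Filled points passed at an adjusted p under 0.05: orange points, from 0.63 to 1.22, were higher at P7, and the 3 blue points were lower. The dotted line is the median of all genes tested, 0.05.

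Markers of other blood cells also differed between the ages. The 15 erythroid markers summed to 912 to 2525 CPM in the P7 libraries and 554 to 1760 CPM in the adult ones, ranges that overlap; 2 of 11 tested, Fech and Car2, were higher at P7 and none was lower, and Slc4a1, Klf1 and Ermap were at 0 in all adult libraries. The 13 neutrophil markers summed to 40.4 to 70.3 CPM in the P7 libraries and 13.0 to 36.6 CPM in the adult ones, nearly all of it Trem1, with Ly6g and Cxcr2 at 0 in all 10 libraries. The 5 B cell markers summed to 9.73 ± 6.07 CPM in the P7 libraries and 3.21 ± 0.82 CPM in the adult ones, the 8 T and NK cell markers to 7.12 ± 1.11 and 14.7 ± 4.06 CPM, and the 7 monocyte markers, almost wholly Lyz2, to 2768 ± 497 and 4365 ± 1161 CPM (SD). An erythroid level was taken as the mean log2 CPM of the 11 tested erythroid markers, and not as their sum. With this level as a term in the edgeR fit, 0 members passed in either direction. At an unadjusted p under 0.05, 1 was higher and 3 were lower. In that fit 9 of the 10 members called higher kept a positive log2 fold change and all 3 called lower kept a negative one. Those called lower were Sdhaf4 at -1.16, Atpaf1 at -0.99 and Atp5md at -0.55. Of those called higher, Uqcc3 stood at 1.14, Uqcrfs1 at 1.11, Atp5g1 at 0.91, Uqcrq at 0.059 and Atp5mpl at -0.0893. The rest stood at 0.21 (Atp5o) to 0.52 (Uqcrc1), with Atp5d at 0.32. The median over the 36 members was -0.15. That fit called 5.34% of all genes. Age accounted for 64.7% of the variance of this mean level, so age and this level cannot be told apart with these libraries. With the neutrophil level as a term, 7 members were higher and 0 lower (2 lower at an unadjusted p under 0.05), and age accounted for 58.1% of its variance. All 13 called members kept their direction there, with Atpaf1 at -0.87, Sdhaf4 at -0.81 and Atp5md at -0.49. No other tool was run with these terms.

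By complex, none of the 4 complex II subunits passed and 3 of 9 nuclear complex III subunits were higher. Of 16 tested ATP synthase subunits, 6 were higher and 1 was lower. Over all genes tested, 13.8% were higher at P7 and 13.9% lower. Of the assembly factors, which build the complexes but are not part of them, 1 of the 6 tested was higher and 2 were lower. Median log2 fold changes were 0.11 for complex II subunits, 0.69 for complex III subunits, 0.46 for ATP synthase subunits and -0.43 for assembly factors. These differences between complexes were not tested.

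Levels of the complex II subunits overlapped between the ages. They summed to 67.4, 67.4, 67.3, 52.9 and 63.6 CPM in P7 libraries A, B, C, E and I, against 68.5, 62.1, 66.98, 56.6 and 46.4 CPM in adult libraries A, B, C, G and H, with means of 63.7 ± 6.24 and 60.1 ± 8.96 (SD). The groups overlapped throughout. Sdhd, one of the membrane anchors that hold the ubiquinone site, had 30.4, 28.5, 24.1, 21.8 and 35.3 CPM in P7 libraries, against 25.7, 25.5, 25.3, 22.2 and 15.1 CPM in adult libraries. Its log2 fold change was 0.30, with a 95% interval from -0.12 to 0.72. The intervals were -0.56 to 0.39 for Sdha, the flavoprotein that oxidises succinate, -0.50 to 0.22 for Sdhb, which carries the iron-sulfur clusters, and -0.41 to 1.36 for the other anchor gene, Sdhc. A change of 2-fold lay outside the intervals of Sdha, Sdhb and Sdhd and inside that of Sdhc. None of the 4 reached an unadjusted p under 0.05 in edgeR, and DESeq2 and limma-voom called none.

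The complex II assembly factors were lower at P7 in 1 of 2 tested. Sdhaf2, which is needed to attach flavin to Sdha, had 95.1, 96.7, 75.7, 80.6 and 110.1 CPM in P7 libraries, against 124, 124, 96.2, 118 and 93.4 CPM in adult libraries. The groups overlapped, and it did not pass (log2 fold change -0.28 ± 0.15, adjusted p = 0.20). Sdhaf4, which helps flavin-bearing Sdha to join Sdhb, had 5.63, 6.097, 4.74, 3.601 and 2.83 CPM in P7 libraries, against 10.4, 7.09, 6.09, 7.24 and 8.95 CPM in adult libraries. Only the P7 library B reached the lowest adult value, and Sdhaf4 fell by 0.80 ± 0.25 on the log2 scale (SE, adjusted p = 0.030). That call was lost without any one of P7 libraries C, E or I or adult libraries A or H (adjusted p = 0.052 to 0.073). Gm26524 overlaps Sdhaf4 on the opposite strand and shares 6.24% of its 75-nt windows, and reads from those could belong to either gene if counting did not use strand.

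In complex III, 8 of 9 nuclear-encoded subunits had positive log2 fold changes and 3 passed. Uqcrq, a small subunit next to cytochrome b, had 90.9, 137, 145, 81.99 and 98.1 CPM in P7 libraries, against 68.5, 73.8, 57.8, 22.02 and 55.1 CPM in adult libraries. All P7 libraries stood above all adult libraries, and Uqcrq rose by 0.99 ± 0.27 (log2, SE, adjusted p = 0.014). Adult library G, at 22.0 CPM, stood far under the other adult libraries. Uqcrc1, a core protein on the matrix side, had 15.9, 21.5, 21.6, 14.5 and 14.8 CPM in P7 libraries, against 13.6, 8.42, 13.4, 10.2 and 9.01 CPM in adult libraries. The groups did not overlap, and it rose by 0.69 ± 0.21 (log2, SE, adjusted p = 0.022). Uqcrfs1, the Rieske iron-sulfur protein that takes electrons from ubiquinol, had 2.09, 2.27, 2.53, 2.96 and 1.73 CPM in P7 libraries, against 1.002, 1.42, 1.46, 0.814 and 0.344 CPM in adult libraries. It was rare, did not overlap between the groups, and rose by 1.19 ± 0.37 (log2, SE, adjusted p = 0.026). The call of Uqcrc1 was lost without P7 library B or C or adult library B or H (adjusted p = 0.052 to 0.063), and that of Uqcrfs1 without P7 library C or E or adult library A or G (adjusted p = 0.053 to 0.074).

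Uqcr11 and Uqcrh, also small subunits, did not pass. Uqcr11 had 67.9, 96.9, 90.04, 54.7 and 79.9 CPM in P7 libraries, against 87.6, 80.9, 85.7, 36.8 and 74.1 CPM in adult libraries. Uqcrh, the acidic hinge protein that docks cytochrome c1, had 25.4, 36.9, 27.9, 24.6 and 31.95 CPM in P7 libraries, against 28.1, 40.6, 33.98, 22.1 and 29.1 CPM in adult libraries. Both overlapped broadly between the ages, with log2 fold changes of 0.09 ± 0.23 and -0.07 ± 0.19 (SE). Uqcrc2, Cyc1, Uqcrb and Uqcr10 had log2 fold changes of 0.34, 0.69, 0.70 and 0.21 and did not pass (adjusted p = 0.22, 0.12, 0.11 and 0.59); Cyc1, the gene of cytochrome c1, passed without P7 library I (adjusted p = 0.047). Cycs, the mobile electron carrier, averaged 1.08 ± 0.40 CPM in the P7 libraries and 0.88 ± 0.35 CPM in the adult ones (SD, n = 5 each), and 26.1% of the 75-nt windows of its transcript also occur in other genes. Per transcript length, Uqcr11 was the most abundant of the nuclear complex III genes. It stood at 264 ± 49.0 TPM in the P7 libraries and 234 ± 72.3 TPM in the adult ones (SD). Cycs was the rarest of the tested ones, at 0.52 and 0.41 TPM.

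The summed level of complex III, without mt-Cytb, overlapped between the ages. Its subunits summed to 231, 334, 328, 209 and 255 CPM in the P7 libraries, in the order of their letters, against 229, 236, 225, 112 and 188 CPM in the adult libraries. The P7 libraries A and E lay within the range of the adult libraries, and adult library G lay under all others. The complex III assembly factor Uqcc3, which acts on newly made cytochrome b, had 4.14, 6.41, 4.38, 4.36 and 6.39 CPM in P7 libraries, against 2.195, 2.92, 2.78, 1.29 and 1.78 CPM in adult libraries. It rose by 1.22 ± 0.28 (log2, SE, adjusted p = 0.0049), the largest log2 fold change among the 36 members, with no overlap. Uqcc1, another factor for cytochrome b, had 1.80 to 14.7 CPM in the P7 libraries and 5.20 to 22.9 CPM in the adult ones and did not pass (log2 fold change -0.58 ± 0.57). The third such factor, Uqcc2, had too few counts to test, at 0.36 to 0.96 CPM in the P7 libraries and 0.11 to 0.58 CPM in the adult ones.

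**Figure D2:**
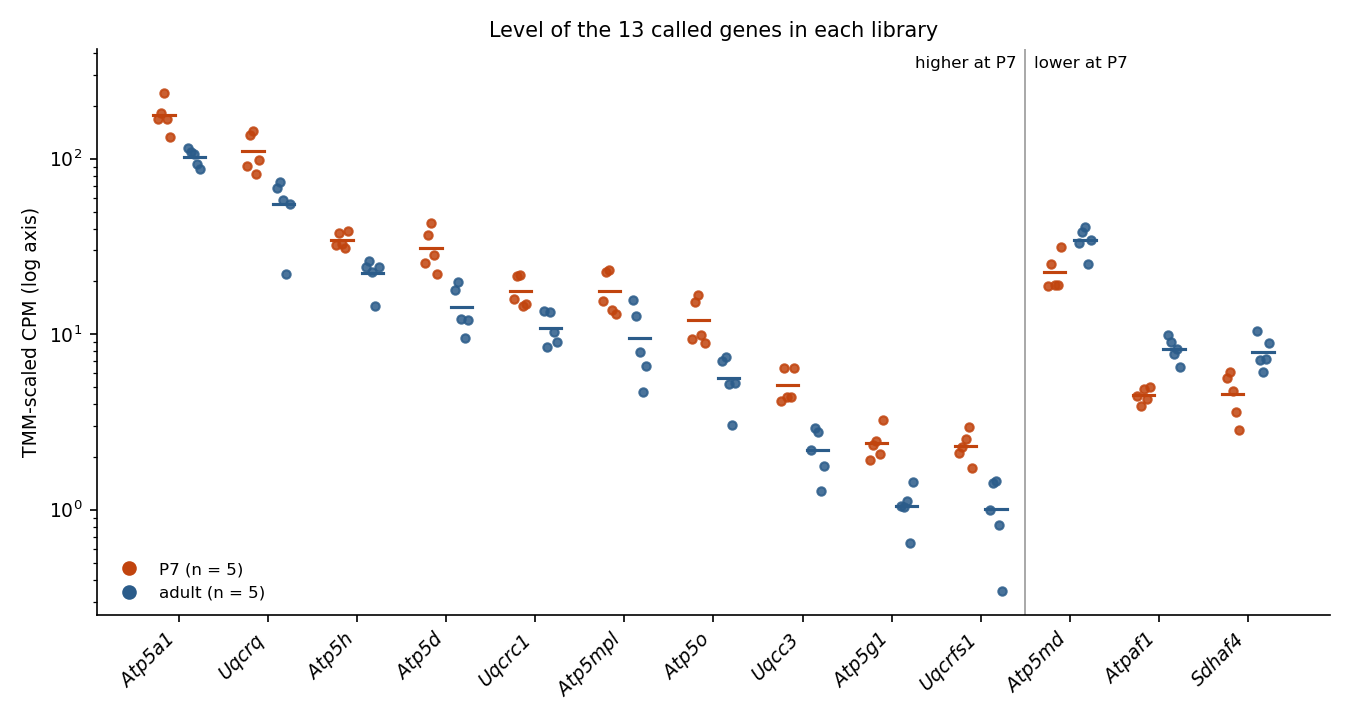
TMM-scaled CPM (log axis) of the 13 genes that passed, in each of 5 P7 and 5 adult libraries; lines are group means. The 10 genes left of the divider were higher at P7 and the 3 right of it lower; Atp5mpl, Atp5md and Sdhaf4 overlap between the ages.

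ATP synthase held 18 of the 36 tested members and 6 of the 10 higher ones. Complex III with cytochrome c had 4 higher of 12 tested, and over all genes tested 13.8% were higher. The 6 ATP synthase genes were spread over the head, the stalk, the c-ring and the membrane part. In the F1 head all 5 subunits had positive log2 fold changes and 2 passed. Atp5a1, the alpha subunit, had 169, 181, 236, 167 and 134 CPM in P7 libraries, against 115, 109.6, 106, 93.6 and 86.9 CPM in adult libraries. The groups did not overlap, and Atp5a1 rose by 0.79 ± 0.16 (log2, SE, adjusted p = 0.0024), the smallest p of all members. Atp5d, the delta subunit of the central stalk, had 25.6, 36.6, 43.01, 28.2 and 21.9 CPM in P7 libraries, against 17.9, 19.9, 12.2, 9.47 and 12.1 CPM in adult libraries. It also separated the groups and rose by 1.12 ± 0.24 (log2, SE, adjusted p = 0.0037). Both calls held when any single library was left out.

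Atp5b, the catalytic beta subunit that alternates with alpha in the head in equal number, did not pass. It had 181, 203, 223, 173 and 121 CPM in P7 libraries, against 177, 154, 167, 142 and 154 CPM in adult libraries. P7 library I held the lowest value of all 10, and the log2 fold change was 0.18 with a 95% interval from -0.163 to 0.525, which overlaps the interval of Atp5a1, 0.448 to 1.14. Counts of Atp5a1 per count of Atp5b were 0.934, 0.894, 1.06, 0.968 and 1.103 in P7 libraries A, B, C, E and I, against 0.6498, 0.7101, 0.636, 0.659 and 0.565 in adult libraries A, B, C, G and H. The mean ratios were 0.99 ± 0.09 and 0.64 ± 0.05 (SD), and no P7 library fell in the adult range. This ratio was chosen after its values were seen and is given without a test. Since both counts come from one library, the ratio is free of the scaling between libraries. Counts of Atp5d per count of Atp5b likewise did not overlap, with 0.142, 0.1805, 0.193, 0.163 and 0.181 at P7 against 0.102, 0.129, 0.0732, 0.0666 and 0.0787 in adults. Per transcript length, Atp5a1 and Atp5b averaged 110 ± 26.6 and 144 ± 35.9 TPM at P7, against 59.4 ± 10.3 and 118 ± 14.5 TPM in adults (SD).

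The gamma and epsilon subunits of F1 did not pass with all libraries. Atp5e, the epsilon subunit, had 103, 118, 145, 76.95 and 74.1 CPM in P7 libraries, against 79.4, 129, 58.7, 53.2 and 60.7 CPM in adult libraries. Adult library B, at 129 CPM, was about as high as the upper P7 libraries, and the log2 fold change of 0.44 ± 0.25 did not pass (adjusted p = 0.22) but did without that library (adjusted p = 0.032). Atp5c1, the gamma subunit that turns within the head, averaged 19.9 ± 5.45 CPM in the P7 libraries and 14.2 ± 2.99 CPM in the adult ones (SD) and passed only without P7 library I (adjusted p = 0.13 with all libraries and 0.042 without it). By length Atp5e was the most abundant of all 36, at 375 ± 112 TPM in the P7 libraries and 262 ± 122 TPM in the adult ones (SD).

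The 4 peripheral stalk genes split. Atp5o, the oligomycin-sensitivity protein that joins the stalk to the head, had 9.34, 15.2, 16.8, 9.92 and 8.95 CPM in P7 libraries, against 7.06, 7.39, 5.22, 3.04 and 5.28 CPM in adult libraries. All P7 libraries stood above the adult ones, and it rose by 1.10 ± 0.27 (log2, SE, adjusted p = 0.0079). Atp5h, subunit d, had 32.3, 37.8, 32.6, 30.9 and 38.8 CPM in P7 libraries, against 24.3, 26.1, 22.5, 14.4 and 24.1 CPM in adult libraries. It too did not overlap and rose by 0.63 ± 0.18 (log2, SE, adjusted p = 0.018); adult library G was again lowest. Atp5pb, subunit b, had 35.3, 44.8, 37.99, 38.8 and 41.2 CPM in P7 libraries, against 50.9, 45.9, 40.4, 44.6 and 46.9 CPM in adult libraries. Atp5j, coupling factor 6, had 35.2, 43.3, 36.1, 37.9 and 45.8 CPM in P7 libraries, against 44.2, 51.1, 46.99, 41.7 and 48.8 CPM in adult libraries. Both had slightly negative log2 fold changes, -0.21 ± 0.14 and -0.23 ± 0.15 (SE), and neither passed (adjusted p = 0.31 and 0.27). Atp5o shares exon positions with Donson on its own strand and with 2 genes on the opposite strand, and 40.3% of the windows of Atp5h occur in 1 other gene, so their counts are uncertain to that extent.

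**Figure D3:**
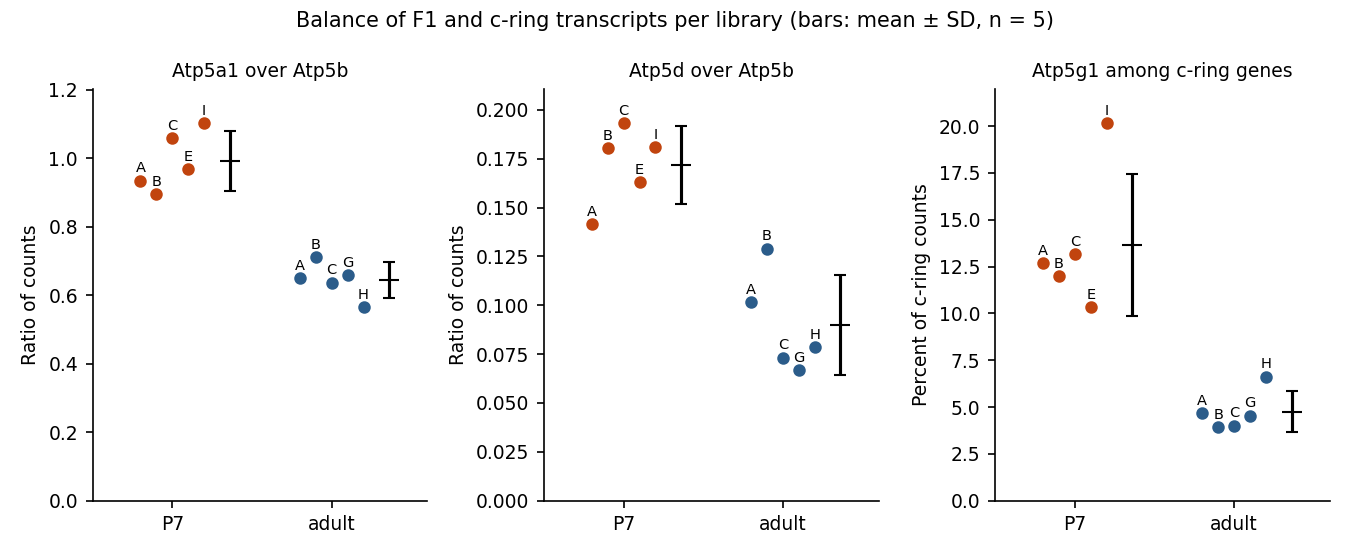
Counts of Atp5a1 and of Atp5d per count of Atp5b, and the percent of c-ring counts in Atp5g1, in each P7 and adult library (letters: replicates; bars: mean ± SD, n = 5). In all 3 panels each P7 library lies above each adult library; the Atp5a1 ratio is 0.89 to 1.10 at P7 and 0.56 to 0.71 in adults.

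Subunit c of the rotor is made from 3 genes, Atp5g1, Atp5g2 and Atp5g3, whose mature proteins are the same and whose import sequences differ. Most c-ring counts came from Atp5g3 at both ages. Atp5g1 had 1.93, 2.32, 2.45, 2.08 and 3.24 CPM in P7 libraries, against 1.05, 1.03, 1.12, 0.643 and 1.43 CPM in adult libraries. The groups did not overlap, and Atp5g1 rose by 1.19 ± 0.31 (log2, SE, adjusted p = 0.011). Atp5g3 averaged 14.6 ± 2.35 CPM in the P7 libraries and 20.5 ± 4.96 CPM in the adult ones (SD), with a log2 fold change of -0.49 ± 0.21 that did not pass (adjusted p = 0.095); without adult library G it passed as lower (adjusted p = 0.025). Atp5g2 was near 1 CPM at both ages, at 0.85 ± 0.23 and 0.98 ± 0.32 CPM (SD). Atp5g1 made up 12.7, 12, 13.2, 10.3 and 20.2 percent of c-ring counts in P7 libraries A, B, C, E and I, against 4.67, 3.92, 4.0, 4.53 and 6.63 percent in adult libraries A, B, C, G and H. Shares of Atp5g3 were 72.7 to 85.9 percent at P7 and 89.1 to 92.0 percent in adults. The 3 transcripts share no stretch longer than 21 nt, shorter than the 75-nt reads, so reads of one would not match another. However, 59.6% of the 75-nt windows of Atp5g1 and 86.9% of those of Atp5g2 also occur in other genes, and the handling of reads that match more than one gene is not stated in the labels.

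The membrane accessory genes went in both directions. Atp5mpl, a small proteolipid bound to the membrane part, had 15.4, 22.6, 23.1, 13.8 and 12.96 CPM in P7 libraries, against 15.6, 12.7, 7.95, 4.67 and 6.598 CPM in adult libraries. The groups overlapped through adult library A, and it rose by 0.89 ± 0.31 (log2, SE, adjusted p = 0.043). Atp5md, the small membrane subunit known as DAPIT, had 18.9, 25.2, 19.1, 19.01 and 31.2 CPM in P7 libraries, against 32.98, 38.4, 41, 25.1 and 34.2 CPM in adult libraries. P7 libraries B and I reached the lowest adult library, G, and Atp5md fell by 0.60 ± 0.20 on the log2 scale (SE, adjusted p = 0.034). Each of these calls held in only 3 of the 10 fits that left out a library: Atp5mpl was lost without P7 library A, B, C or E or adult library C, G or H (adjusted p = 0.060 to 0.11), and Atp5md without P7 library A, B, C or E or adult library A, B or C (adjusted p = 0.050 to 0.084). Atp5j2, subunit f, had 38.7, 55.7, 46.3, 31.7 and 38.5 CPM in P7 libraries, against 37.5, 44.2, 34.1, 17.9 and 36.9 CPM in adult libraries. It did not pass (log2 fold change 0.31 ± 0.23), and neither did Atp5k, subunit e (0.50 ± 0.24). Atp5l, subunit g, could not be assessed, with 0.16 to 0.46 CPM in the P7 libraries and 0.21 to 0.54 CPM in the adult ones, while 76% of its windows occur in 10 other genes.

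Both assembly factors of F1 had negative log2 fold changes and 1 passed, while all 5 head subunits had positive ones and 2 passed. The difference in sign was not tested. The 95% intervals of Atpaf2 (-0.663 to 0.108) and Atp5b (-0.163 to 0.525) hold values of both signs. Atpaf1, which holds free beta subunit until it joins alpha, had 4.47, 3.87, 4.86, 4.28 and 4.98 CPM in P7 libraries, against 9.83, 9.03, 7.702, 8.23 and 6.48 CPM in adult libraries. All adult libraries stood above all P7 libraries, and Atpaf1 fell by 0.88 ± 0.20 on the log2 scale (SE, adjusted p = 0.0050), a call that held when any single library was left out. Atpaf2, which holds free alpha subunit, had 22.01, 31.4, 24.7, 17.3 and 25.5 CPM in P7 libraries, against 33.1, 25.4, 32.7, 27.97 and 27.3 CPM in adult libraries. The groups overlapped and it did not pass (-0.28 ± 0.18, adjusted p = 0.28). Summed over all 9 assembly factors of the 3 complexes, levels were 143, 154, 120.0, 113 and 165 CPM in the P7 libraries, against 186, 174, 169, 170.5 and 158 CPM in the adult libraries. Only P7 library I reached into the adult range. Sdhaf2 alone made up most of that sum in every library.

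Some of these counts could include reads of other genes. Of the 13 genes that passed, 6 (Uqcrc1, Uqcrfs1, Uqcrq, Uqcc3, Atp5d and Atp5mpl) had no 75-nt window in common with another gene of the annotation. Shared windows made up 34.7% of Atp5md, 34.1% of Atpaf1, 22.3% of Atp5o and 2.29% of Atp5a1. Exons of Atp5a1, Atp5d and Atp5md overlap those of Haus1, Cbarp and Taf5 on the opposite strand, and only reads from the overlapping bases could be assigned to either gene if counting did not use strand.

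**Figure D4:**
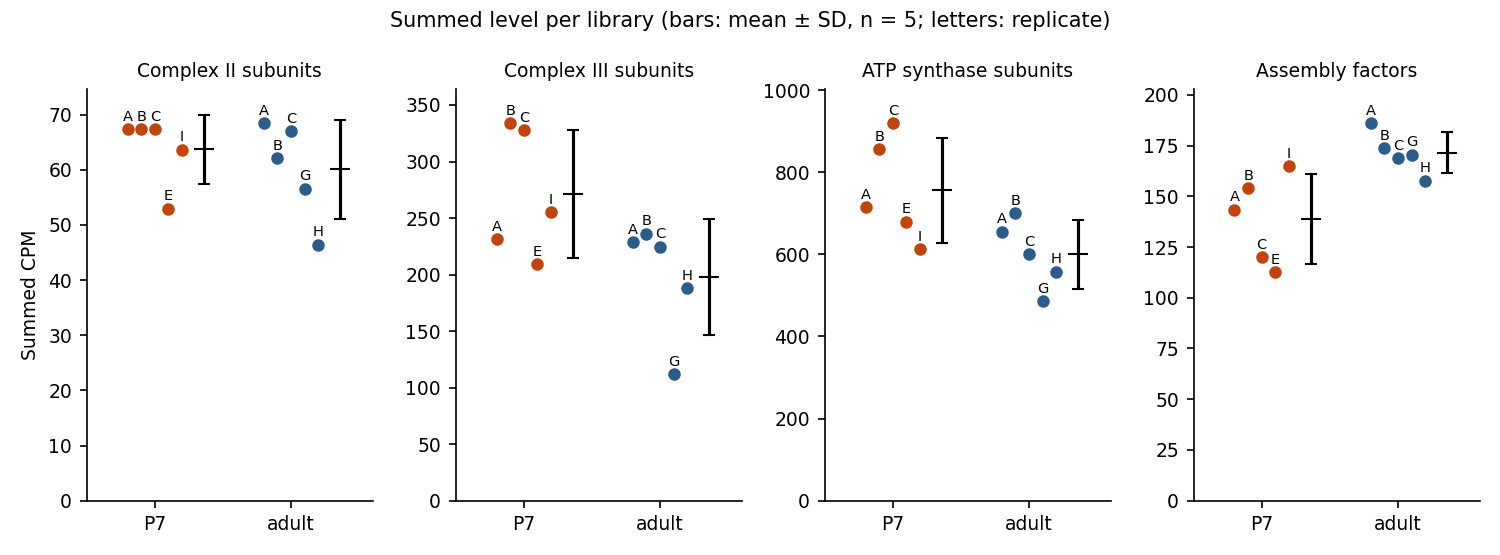
Summed TMM-scaled CPM of nuclear-encoded complex II, complex III and ATP synthase subunits and of assembly factors in each library. Letters are replicates, and bars are mean ± SD (n = 5). Complex II sums overlap throughout; the ATP synthase sums average 757 CPM in the P7 libraries and 600 CPM in the adult ones and also overlap, and adult library G is lowest in complex III and ATP synthase.

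Summed ATP synthase subunits came to 715, 857, 920.1, 679 and 612 CPM in the P7 libraries, against 655, 699.9, 601, 487 and 558 CPM in the adult libraries, with means of 757 ± 128 and 600 ± 83.1 (SD). P7 libraries E and I lay within the adult range. All nuclear-encoded subunits of the 3 complexes together averaged 1092 ± 182 CPM in the P7 libraries and 858 ± 137 CPM in the adult ones (SD).

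Some libraries stood low or high for many of these genes at once. Adult library G held the lowest adult value for 20 of the 36 tested members (55.6%), and it held the lowest for 19.7% of all genes tested. Adult libraries A and B held the highest adult value for 13 and 14 members (36.1% and 38.9%, against 18.4% and 19.5% of all genes tested). At P7 the highest values were mostly in libraries B, C and I, with 12, 11 and 11 members. These were 33.3%, 30.6% and 30.6%, against 18.7%, 22.8% and 26.2% of all genes tested, so library I was near its background. P7 library A held none, against 15.4%. P7 library I also held the lowest P7 value for 14 members (38.9%, against 24% of all genes tested), and P7 library E for 11 (30.6%, against 20.5%). Without adult library G, 8 members were higher and 4 lower at P7: Uqcrfs1 and Atp5mpl lost the call and Atp5g3 gained it. Over the 10 fits that each left out 1 library, 7 to 12 members were higher and 1 to 4 lower; the lower count was 1 without P7 library C, P7 library E or adult library A. The calls of Uqcrq, Uqcc3, Atp5a1, Atp5d, Atp5h, Atp5o, Atp5g1 and Atpaf1 held in all 10. With the trend of counts on GC content removed, Uqcrc1, Atp5g1, Atp5md and Sdhaf4 lost the call and Uqcrb gained it, and without a filter on low counts Uqcrfs1 lost it.

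**Figure D5:**
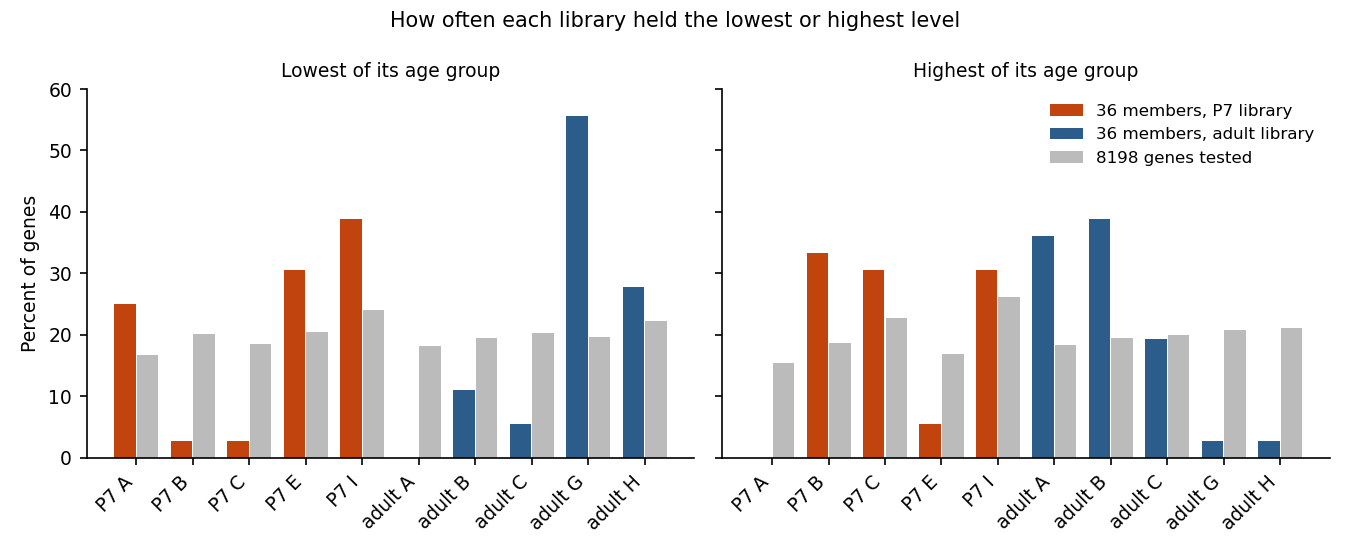
Percent of the 36 tested members (colour) and of all 8198 genes tested (grey) for which each library held the lowest or the highest level of its age group. Adult library G is lowest for 55.6% of members and 19.7% of all genes.

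The mitochondrially encoded partners gave little to compare. mt-Cytb, cytochrome b of complex III, had 688, 998, 635, 839 and 1248 CPM in the P7 libraries, against 770.3, 756, 538, 830.1 and 828 CPM in the adult libraries. The groups overlapped and it did not pass (log2 fold change 0.24 ± 0.19, adjusted p = 0.36). mt-Atp6 and mt-Atp8 were listed at 0 in all 10 libraries, as were mt-Nd3, mt-Nd4l, mt-Co2 and mt-Co3, and nothing is drawn from them. Of the 6 other mitochondrially encoded proteins tested, 2 were higher at P7, mt-Co1 (1.19 ± 0.20) and mt-Nd1 (0.82 ± 0.21, log2, SE). Over all genes tested 13.8% were higher at P7. All 6 had positive log2 fold changes, with a median of 0.49, against 0.05 over all genes tested.

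The neighbouring steps of the pathway had calls in both directions, and over all genes tested 13.8% were higher at P7 and 13.9% lower. Of 35 nuclear complex I subunits tested, which pass electrons from NADH to ubiquinone, 10 were higher at P7 and 1 lower, with the smallest p for Ndufb7 (log2 fold change 1.21 ± 0.19) and Ndufv3 (1.24 ± 0.22) and the largest fold for Ndufc2 (2.23 ± 0.43). Of 13 nuclear complex IV subunits, which pass electrons to oxygen, 3 were higher and 2 lower; Cox5a averaged 34.0 ± 6.67 CPM in the P7 libraries and 262 ± 61.3 CPM in the adult ones (SD) and fell by 2.95 ± 0.20 (log2, SE), and Cox6b2 rose by 1.43 ± 0.21. TCA cycle enzymes feed succinate and NADH to the chain, and 6 of 14 were higher and none lower, with the smallest p for Idh2 (2.04 ± 0.27) and Fh1, the fumarase that takes the product of complex II (1.64 ± 0.31). Median log2 fold changes were 0.45 for complex I, 0.15 for complex IV and 0.65 for the TCA cycle, against 0.30 for the members and 0.05 for all genes. Of 7 carriers and channels that move ATP, ADP and phosphate, 1 was higher, Vdac1 (0.64 ± 0.17). These lists were chosen with earlier results of these data known, and differences between them were not tested.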

How the data were processed

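RNA-seq libraries of platelets from P7 mice (n = 5) and adult mice (n = 5) were compared. Per the labels' protocols, cDNA was amplified from 1 ng of Trizol RNA with a low-input SMARTer kit, made into Nextera XT libraries and read as 75-nt single ends. The deposited values are raw counts per gene symbol. The tools named in the submitters' processing notes, with no role given, were Salmon 1.5.2, featureCounts from Subread 2.0.1, STAR 2.7.9a and fastp 0.23.1. The sources used here do not give the genome build, the strand setting or the handling of multi-mapping reads. Amplification without molecular identifiers means that floors cover counting error only.

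Genes were kept with filterByExpr (minimum count 10, minimum total 15), scaled by TMM and fitted in edgeR 4.0.16 (R 4.3.3, limma 3.58.1) with age as the only term, using its robust quasi-likelihood F test and Benjamini-Hochberg adjustment over 8198 genes. The fit was tested on simulated counts. SE is the log2 fold change divided by the root of its F statistic. TPM, GC content, overlaps and shared 75-nt windows used 1 GENCODE vM21 transcript per gene (50454 of 53819 symbols matched). Promoter windows are from RefSeq, GRCm38.p6.

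The members and gene lists were chosen with earlier results of these data known. Per-library values are given for members that passed or averaged at least 20 CPM. Of other lists, up to 2 called genes with the smallest p were named. Biogenesis regulators with an unadjusted p under 0.05 were also named. Alternatives were other scalings, DESeq2 1.42.0, limma-voom, other filters, each library left out, a replicate block, marker covariates, GC correction and equal depth.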

Additional observations from a re-analysis of the deposited data

Results flagged for a closer look

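Within each age group of 5 libraries, 96 sets of values (levels of the 36 tested members, sums by complex, mt-Cytb, count ratios and c-ring shares) were checked for a highest or lowest library standing apart from the other 4, and 7 did. Chance flags about 1 in 20 such groups. Sdhc had 6.39 CPM in P7 library C, against 2.05 to 2.66 CPM in the other P7 libraries. Uqcr11 had 36.8 CPM in adult library G, against 74.1 to 87.6 CPM in the other adult libraries. Complex II subunits summed to 52.9 CPM in P7 library E, against 63.6 to 67.4 CPM in the others of that age. mt-Cytb had 538 CPM in adult library C, against 756 to 830 CPM in the other adult libraries. The count ratio of Atp5e to Atp5b was 0.836 in adult library B, against 0.351 to 0.449 in the other adult libraries. The share of c-ring counts in Atp5g1 was 6.63 percent in adult library H, against 3.92 to 4.67 percent in the other adult libraries, and that of Atp5g3 was 72.7 percent in P7 library I, against 82.3 to 85.9 percent in the other P7 libraries.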

How the results depend on the processing

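The 10 higher and 3 lower calls were the same genes under RLE, library-size-only and upper-quartile scaling, DESeq2, limma-voom and thinning to equal depth. Without a filter on low counts 9 were higher and 3 lower. With a mean of at least 10 CPM required, 24 members were left to test, of which 6 were higher and 1 lower. Of all 2802 genes left under that filter 43.2% passed, 568 higher and 643 lower. Leaving out each library in turn gave 7 to 12 higher and 1 to 4 lower. With the erythroid marker level as a term 0 and 0 passed, and the log2 fold change of Atp5mpl turned to -0.0893 (adjusted p = 0.93). With the level of the 2 tested neutrophil markers as a term 7 and 0 passed. With the GC trend removed 9 were higher and 1 lower: Uqcrc1, Atp5g1, Atp5md and Sdhaf4 lost the call and Uqcrb gained it. The causes were not tested.

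Replicate letters A to C occur at both ages, and the labels do not say whether they mark pairs. Deviations from the group means correlated at -0.05 to 0.08 between same-letter libraries over the 3 letters. No P7 library of these letters correlated best with its own letter. No known pair was at hand for comparison, so these values cannot decide whether the letters mark pairs. With the letters as a replicate block in those 6 libraries, 3 members were higher and 2 lower; the same 6 libraries without the block gave 4 and 3.

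Sdhaf1, Sdhaf3, Uqcc2 and Atp5l had too few counts to be tested. Other genes hold 68.7% of the 75-nt windows of Sdhaf1 and 76% of those of Atp5l. For Sdhaf1 and Atp5l, a low level and reads that could not be placed cannot be told apart. Relative levels cannot show absolute amounts per platelet.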

Other observations

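Genes that shape the inner membrane, where ATP synthase sits, had calls in both directions. Among 8 cristae genes with enough counts, 3 rose and 1 fell in P7 platelets. The shares over all genes tested were 13.8% higher at P7 and 13.9% lower. Micos13, a subunit of the MICOS complex at crista junctions, averaged 11.9 ± 2.66 CPM in the P7 libraries and 3.79 ± 1.58 CPM in the adult ones (SD, n = 5 each; log2 fold change 1.64 ± 0.31), and its partner Micos10 averaged 31.7 ± 4.73 CPM in the P7 libraries and 66.8 ± 11.9 CPM in the adult ones (-1.07 ± 0.17). Of 11 genes of the outer membrane and protein import, 1 was higher, the import motor chaperone Hspa9 (1.28 ± 0.42; SE). None of 6 further assembly factors of complexes II, III and ATP synthase passed in edgeR (0 at an unadjusted p under 0.05, 0 by DESeq2 and 0 by limma-voom). None of 6 regulators of mitochondrial biogenesis tested passed either, with 4 at an unadjusted p under 0.05, 0 by DESeq2 and 0 by limma-voom, and a median log2 fold change of -0.53.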
